A study of Mus musculus with 8 samples.

Results

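The collagen genes of the mouse were followed in brown adipose tissue (BAT), the heat-producing fat, of mice that lack the orexin receptor Ox1R in serotonergic cells. A gene was counted as a collagen gene when its Ensembl identifier maps to a protein-coding symbol of the form Col, number, a, number in the GENCODE annotation of GRCm38. The table of 44674 genes held 44 of them. There were 6 genes for the fibrillar collagens of types I, III and V, 8 for the basement membrane collagens of types IV, XV and XVIII, 6 for type VI and 24 for all other types.

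BAT was sequenced from 4 control mice and 4 Ox1RΔSERT mice, all male, of the C57BL/6N strain, and kept on a high-fat diet (HFD) from week 4 to week 18. Both groups carried the floxed Ox1R gene (Ox1R fl/fl), and only the Ox1RΔSERT mice carried the Sert-Cre transgene (Slc6a4-Cre), which acts in cells that make the serotonin transporter. Where the transgene acted was not measured in these libraries. All tissue was taken at the end of a hyperinsulinemic-euglycemic clamp, which fixes blood glucose by a variable glucose infusion while insulin runs in, so no value here describes unclamped BAT. The control mice are numbered 10684, 11253, 11560 and 11563 and the Ox1RΔSERT mice 11243, 11601, 11613 and 11708, and lists of values keep this order.

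Collagens are the main structural proteins of the space between cells. Their chains wind around each other in a helix that needs glycine at regular short intervals, and in adipose tissue most of them come from fibroblasts, adipose progenitors and vessel wall cells, with adipocytes adding type IV and type VI. Types I, III and V build the fibrils of the interstitium, type IV builds the sheet of the basement membrane around each adipocyte and vessel, types XV and XVIII are proteoglycans that sit at that membrane, and type VI forms beaded filaments next to it. In fat, thicker bundles of fibrillar collagen and type VI are known from obesity.

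The glycine repeat was counted in the longest coding transcript of each gene, and it set the fibrillar genes apart from the basement membrane and type VI genes, whose counts overlapped. In the 6 fibrillar genes the longest unbroken run of codon triplets that start with a glycine codon held 337 to 344 triplets, in the 8 basement membrane genes 30 to 66 and in the 6 type VI genes 37 to 87. Coding exons of 54 bases, the length of the ancestral exon of 6 such triplets, occurred 21 to 31 times in each fibrillar gene. They occurred 1 to 3 times in each basement membrane gene and 2 to 3 times in each type VI gene. These exons were counted by length alone, without a check of their triplets. Outside the 3 named classes, Col2a1, Col11a1 and Col11a2 also had runs of 338 or 339 triplets, within the fibrillar range. One exon of that length is shown for each of 4 fibrillar genes, and for Col4a1 and Col4a2, the chains of the common type IV network, an exon in which the repeat is interrupted, since the fibrillar genes and these type IV genes are the members whose levels parted in the results. The exons come from GRCm38 at chr11:94939904-94939957 (Col1a1, plus strand), chr6:4515481-4515534 (Col1a2, plus), chr1:45325360-45325413 (Col3a1, plus), chr1:45422386-45422439 (Col5a2, minus), chr8:11223576-11223668 (Col4a1, minus) and chr8:11415926-11416075 (Col4a2, plus), and each is written in the direction of its gene with glycine codons of the repeat in capitals.
Col1a1: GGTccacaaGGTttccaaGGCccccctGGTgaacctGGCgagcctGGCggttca
Col1a2: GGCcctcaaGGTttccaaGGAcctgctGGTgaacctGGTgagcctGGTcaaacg
Col3a1: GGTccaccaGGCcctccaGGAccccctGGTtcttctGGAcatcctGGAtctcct
Col5a2: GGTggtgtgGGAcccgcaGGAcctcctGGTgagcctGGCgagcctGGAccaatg
Col4a1: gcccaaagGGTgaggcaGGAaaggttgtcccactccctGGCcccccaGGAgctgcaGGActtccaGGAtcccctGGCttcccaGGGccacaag
Col4a2: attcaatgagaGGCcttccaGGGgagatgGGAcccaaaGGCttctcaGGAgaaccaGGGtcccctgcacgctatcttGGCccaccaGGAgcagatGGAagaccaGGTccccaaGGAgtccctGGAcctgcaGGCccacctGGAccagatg
In the 4 fibrillar exons a glycine codon opened each unit of 9 bases. In the Col4a1 exon of 93 bases and the Col4a2 exon of 150 bases, the widest distance between the starts of neighbouring glycine codons was 21 bases.

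Several of the genes lie next to each other. Col4a1 and Col4a2 share a start region on chromosome 8 and run in opposite directions, with start sites 21 bases apart and 22 bases of exon in common on opposite strands. Col4a3 and Col4a4 lie head to head with 71 bases between them, and Col4a5 and Col4a6 with 1308 bases. Col3a1 and Col5a2 are neighbours on chromosome 1 with 24614 bases between them, and Col6a1 and Col6a2 on chromosome 10 with 85161 bases. The libraries were stranded, but the strand setting of the quantification is not given in the sources used here, so reads within exons shared with a gene on the opposite strand cannot be assigned with certainty. The largest such overlap among the members given with values was in Col4a3, 563 of 9967 exon bases with C430014B12Rik. Col6a4 shared 162 and 127 of 8526 exon bases with Gm47575 and Gm36993, and Col5a1 shared 113 and 99 of 8490 with Gm13372 and 2810430I11Rik. In Col3a1 an overlap of 141 of 9816 exon bases was with the miRNA gene Gm47302 on the same strand.

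Start regions were read from RefSeq windows on GRCm38.p6 that reach from 250 bases before to 50 bases after the start of a gene, and 35 of the 44 collagen genes had one. Col1a1, Col2a1, Col4a3, Col5a2, Col9a3, Col12a1, Col14a1, Col22a1 and Col26a1 had none. The windows of Col1a2 (chr6:4505368-4505667, plus strand) and Col3a1 (chr1:45311288-45311587, plus) are shown because these genes had high values in the same mice, and that of Col4a2 (chr8:11312555-11312854, plus) because it also holds the start of Col4a1. Capitals mark the CCAAT box (CCAAT), the GC box (GGGCGG) and the TATA box (TATAAA) on either strand. Matches of the GC box can overlap each other.
Col1a2: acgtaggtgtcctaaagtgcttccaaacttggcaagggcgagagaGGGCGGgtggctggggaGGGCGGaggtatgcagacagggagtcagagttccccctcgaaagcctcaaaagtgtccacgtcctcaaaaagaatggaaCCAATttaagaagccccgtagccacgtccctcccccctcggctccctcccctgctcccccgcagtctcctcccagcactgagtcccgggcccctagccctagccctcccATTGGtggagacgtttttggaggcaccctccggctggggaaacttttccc
Col3a1: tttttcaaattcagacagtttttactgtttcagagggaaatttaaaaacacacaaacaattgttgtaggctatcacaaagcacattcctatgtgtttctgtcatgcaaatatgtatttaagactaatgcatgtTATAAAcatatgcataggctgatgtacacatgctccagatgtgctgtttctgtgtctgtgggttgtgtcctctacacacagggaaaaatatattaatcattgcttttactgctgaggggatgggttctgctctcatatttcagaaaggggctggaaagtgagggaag
Col4a2: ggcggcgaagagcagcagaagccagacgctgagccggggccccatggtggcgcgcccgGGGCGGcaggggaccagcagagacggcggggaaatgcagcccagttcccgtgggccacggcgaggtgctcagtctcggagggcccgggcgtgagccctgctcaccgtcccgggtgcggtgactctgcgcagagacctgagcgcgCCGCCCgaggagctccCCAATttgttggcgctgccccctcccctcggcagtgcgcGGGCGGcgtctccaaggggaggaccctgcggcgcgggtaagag
The Col1a2 window held a CCAAT box 109 bases before the start, another on the minus strand at distance 0 from the start, and GC boxes 205 and 188 bases before it. The Col3a1 window held a TATA box 117 bases before the start and no match to the other motifs. The Col4a2 window held a CCAAT box 32 bases before the start and GC boxes 192 and 48 bases before it and 7 bases after it. Of the 35 collagen genes with a window, 62.9% held a GC box, 37.1% a CCAAT box and 14.3% a TATA box in any of their windows. Col6a2, Col9a1 and Col18a1 had a further window, which gives these genes more room for a match. Over all 32851 RefSeq windows, counted by window and not by gene, the shares were 35.7%, 37.4% and 13.6%. A match is a string of letters and was not measured as a binding site.

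Total counts lay between 35852708 and 50063339 per mouse, and mitochondrially encoded genes took 33.6% to 46.8% of them. Ucp1, the uncoupling protein that defines brown adipocytes, stood at 1863 to 2638 TPM, a transcript abundance scaled for length and library, in all 8 mice. Hcrtr1, the gene of the deleted receptor, had at most 5 counts in a mouse, which cannot show whether it was deleted. Mice 11601 and 11708, both Ox1RΔSERT, stood apart: a first principal component with 52.2% of the variance placed them at 61.6 and 80.5, and none of the remaining 6 mice above 8.62. The fold changes of the members described one by one and the medians of the gene lists that were high or low in these 2 mice are therefore also given without them.

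In the control mice, Col3a1 was the most abundant collagen transcript per unit of length at 70.3 ± 29.2 TPM (SD, n = 4), followed by Col4a1 at 63.5 ± 16.0 TPM and Col4a2 at 40.3 ± 9.46 TPM. These first 2 neighbours did not differ beyond their spread. Col1a2 at 16.4 ± 5.80 TPM and Col1a1 at 11.7 ± 4.46 TPM came next, again within their spread, and then the type VI genes Col6a2, Col6a1 and Col6a3 at 9.37 ± 3.27, 9.04 ± 2.99 and 7.65 ± 2.03 TPM. Of the remaining members, Col12a1, Col5a3, Col27a1, Col5a2, Col15a1, Col5a1, Col14a1, Col18a1, Col11a2 and Col7a1 had control means between 5.79 and 1.03 TPM, in this order. The other 26 collagen genes had a control mean under 1 TPM.

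The collagen make-up of BAT was shifted towards fibrillar collagen in Ox1RΔSERT mice 11601 and 11708. The TPM values of the 6 fibrillar genes summed to 67.3, 169, 97.5 and 106 in controls and to 118, 1571, 210 and 716 in Ox1RΔSERT mice. On this scale mice 11601 and 11708 were above every control mouse, mouse 11613 was also above the highest control mouse and mouse 11243 lay among the controls. After TMM scaling the fibrillar sums of mice 11601 and 11708, at 6602 and 3214, were again above every control mouse. Mouse 11613, at 1113, then lay under control mouse 11253 at 1146. The ratio of the group means of summed TPM was 5.94, and 1.49 without mice 11601 and 11708. Type VI summed to 17.05 to 36.4 TPM in controls and to 27.3, 182, 43.7 and 90.7 TPM in Ox1RΔSERT mice, a ratio of 3.29, and 1.36 without both mice. The basement membrane genes differed less: they summed to 77.6 to 143 TPM in controls and to 104, 218, 117 and 160 TPM in Ox1RΔSERT mice, a ratio of 1.37, and 1.01 without both mice. After TMM scaling they summed to 672 to 1219 in controls and to 917, 1276, 868 and 959 in Ox1RΔSERT mice, with only mouse 11601 above the controls. TPM values were higher in Ox1RΔSERT mice in general. The median log2 fold change of all tested genes was 0.32 on log2(TPM + 0.1), against 0.0021 on counts after TMM scaling.

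As a share of all collagen TPM, the fibrillar genes made up 35.2% to 50.9% in controls and 44.8%, 76.8%, 53.2% and 70.7% in the Ox1RΔSERT mice. The basement membrane genes made up 32.9% to 47.6% in controls and 39.3%, 10.7%, 29.8% and 15.8% in the Ox1RΔSERT mice. Thus only mouse 11243 lay within the control range for either share. The share of type VI stayed between 8.88% and 11.1% in all 8 mice. Shares sum to a whole, so a larger fibrillar share lowers the others by construction.

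**Figure D1:**
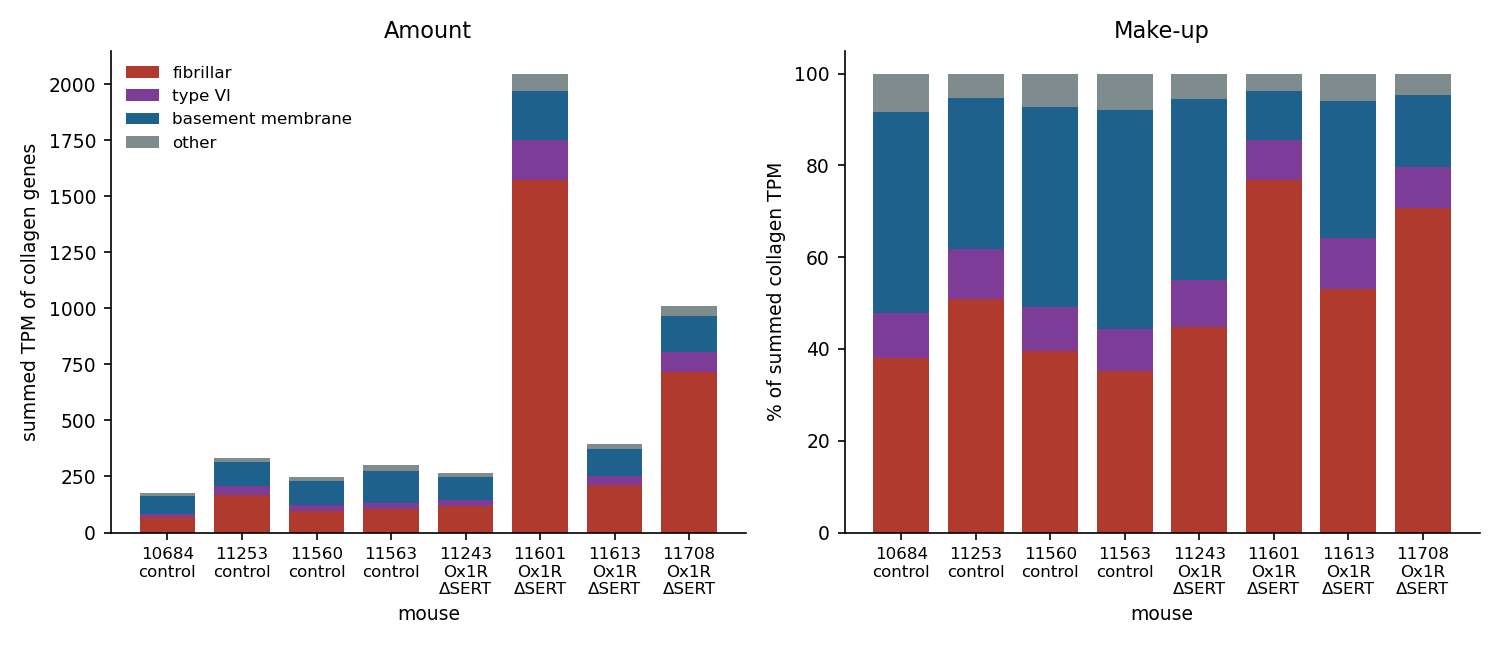
Summed TPM of the 44 collagen genes in each mouse (left, TPM) and the share of each class in that sum (right, %), with bars stacked by class and 1 bar per mouse. The bars of mice 11601 and 11708 reach 2047 and 1013 TPM, against 177 to 333 TPM in the control mice, and fibrillar genes make up 76.8% and 70.7% of them.

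The comparison of Ox1RΔSERT with control mice asked whether the loss of Ox1R in serotonergic cells goes with a different collagen transcript level in BAT. The test was edgeR's quasi-likelihood test on counts, and normalized values are CPM values (counts scaled by library) after TMM scaling. Of the 44 members, 31 passed the filter on low counts, which asks for enough reads in at least 4 mice. The number called at an adjusted p under 0.05 was 0, as it was over all 14489 genes tested (0%). At an unadjusted p under 0.05, 16 members were higher in Ox1RΔSERT mice and 0 were lower, and of all genes tested 10.2% were higher at that p. DESeq2, on the same counts, called 1 member, Col18a1, and 1.54% of its 15119 genes with an adjusted p as higher. With mice 11601 and 11708 left out, 0 members had an unadjusted p under 0.05 in edgeR. The same fit, which has fewer mice, gave that p to 402 of all 14489 genes tested.

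The log2 fold change was above 0 in 20 of the 31 tested members and above 1 in 16, and over all tested genes these shares were 50.4% and 7.23%. Its median was 1.15 over the 31 members and 0.0021 over all genes tested, and without mice 11601 and 11708 it was 0.22 over the 31 members. In 18 of the 31 members the 2 highest mice were 11601 and 11708, which held for 20.1% of all tested genes. Only Col4a5 had no overlap between the groups, with every Ox1RΔSERT mouse above every control mouse, a pattern seen in 2.69% of all tested genes. The 31 members are those that passed the filter and are not the whole family. In bulk tissue, fewer or more cells of a type and less or more RNA per cell cannot be told apart.

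**Figure D2:**
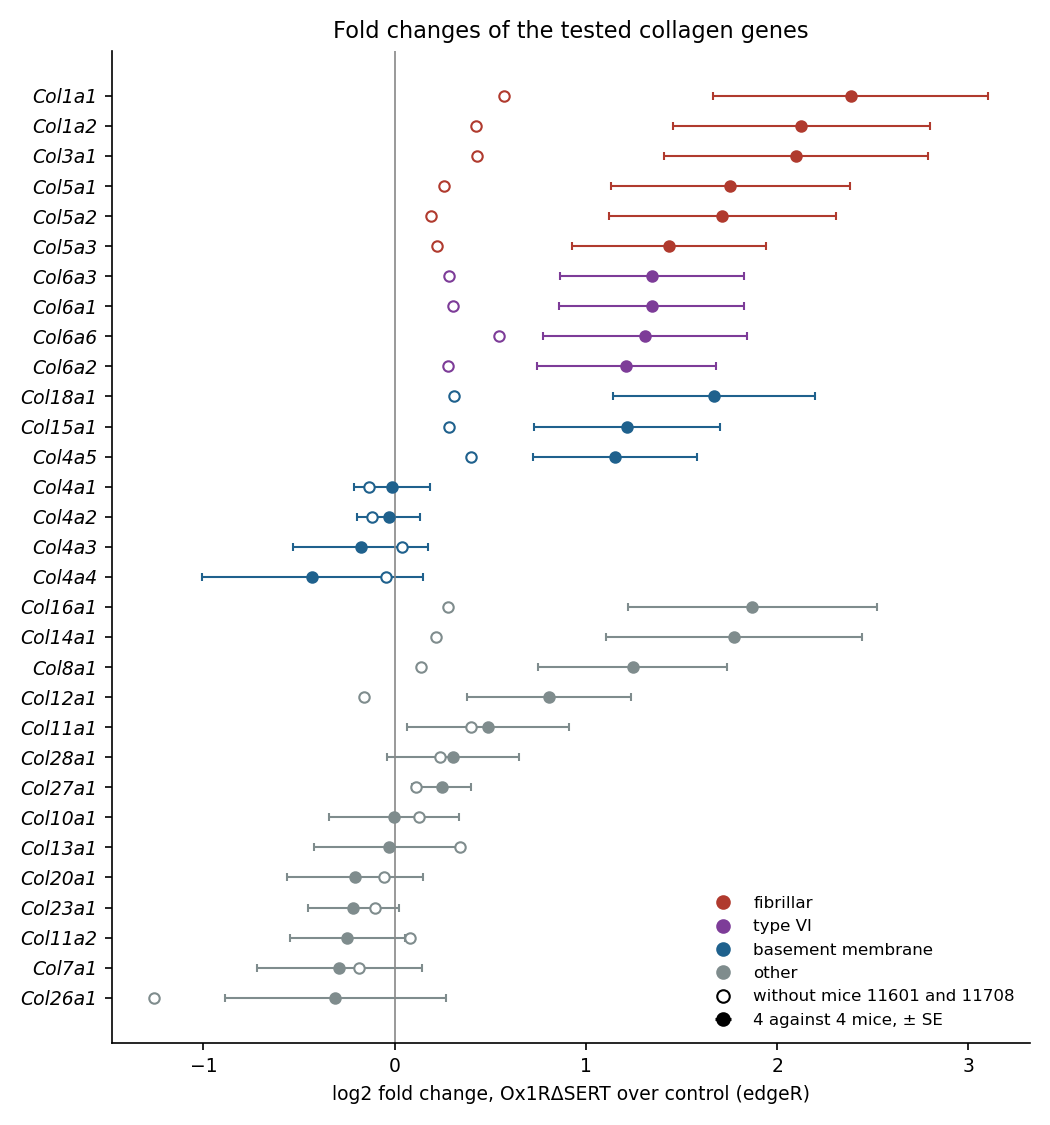
Log2 fold change (Ox1RΔSERT over control, edgeR) of each of the 31 tested collagen genes, grouped by class. Filled points with bars give the fit of 4 against 4 mice with its standard error and open points the fit without mice 11601 and 11708. All 6 fibrillar and 4 type VI genes lie above 1 with all mice and between 0.19 and 0.57 without those 2, and Col4a1 and Col4a2 lie at -0.02 and -0.03 with all mice.

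The fibrillar genes of types I and III had the 3 largest fold changes of all tested members, and all 6 fibrillar genes had their highest values in mouse 11601 and the next in mouse 11708. Col1a1, on chromosome 11 from 94936224 to 94953042, encodes the main chain of type I collagen. Its normalized values were 44.2, 128, 75.4 and 75.7 in controls and 80.2, 958, 159 and 491 in Ox1RΔSERT mice. Mice 11601, 11708 and 11613 were above every control mouse and mouse 11243 lay among them. The log2 fold change of Col1a1 was 2.38 (SE 0.72), with an unadjusted p of 0.0093 and an adjusted p of 0.316 in edgeR, and DESeq2 gave an adjusted p of 0.0645. Without mice 11601 and 11708 the log2 fold change was 0.57.

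Col1a2, the partner chain of type I, stood at 67.9, 173, 95.7 and 95.9 in controls and at 105, 1041, 184 and 558 in Ox1RΔSERT mice. The order of the mice was that of Col1a1, and the TPM ratio of Col1a1 to Col1a2 stayed between 0.613 and 0.867 in all 8 mice. Col3a1, whose chains form type III fibrils in soft tissue, had values of 221, 684, 335 and 341 in controls and 424, 3935, 636 and 1775 in Ox1RΔSERT mice. For Col3a1, mouse 11613 lay under control mouse 11253, so that only mice 11601 and 11708 exceeded all controls. The log2 fold changes were 2.13 (SE 0.67) for Col1a2 and 2.10 (SE 0.69) for Col3a1, and 0.43 for each without those mice.

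Type V collagen sets the thickness of type I fibrils. The fold changes of its chain genes were smaller than those of types I and III, a difference that was not tested. Col5a1 stood at 17.3, 47.0, 22.4 and 25.2 in controls and at 26.8, 208, 39.7 and 103 in Ox1RΔSERT mice. Col5a2 stood at 26.8, 56.9, 31.8 and 36.9 in controls and at 34.7, 263, 51.9 and 150 in Ox1RΔSERT mice. Col5a3 stood at 24.4, 56.4, 31.7 and 44.7 in controls and at 48.2, 196, 42.7 and 138 in Ox1RΔSERT mice. In each of these genes mice 11601 and 11708 were above all control mice, while mice 11243 and 11613 lay within the control range. The log2 fold changes were 1.76 (SE 0.62), 1.71 (SE 0.59) and 1.44 (SE 0.51), and 0.26, 0.19 and 0.22 without mice 11601 and 11708. The adjusted p was 0.316 in edgeR for all 6 fibrillar genes, and the median log2 fold change of the class was 1.93, against 0.34 without both mice.

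**Figure D3:**
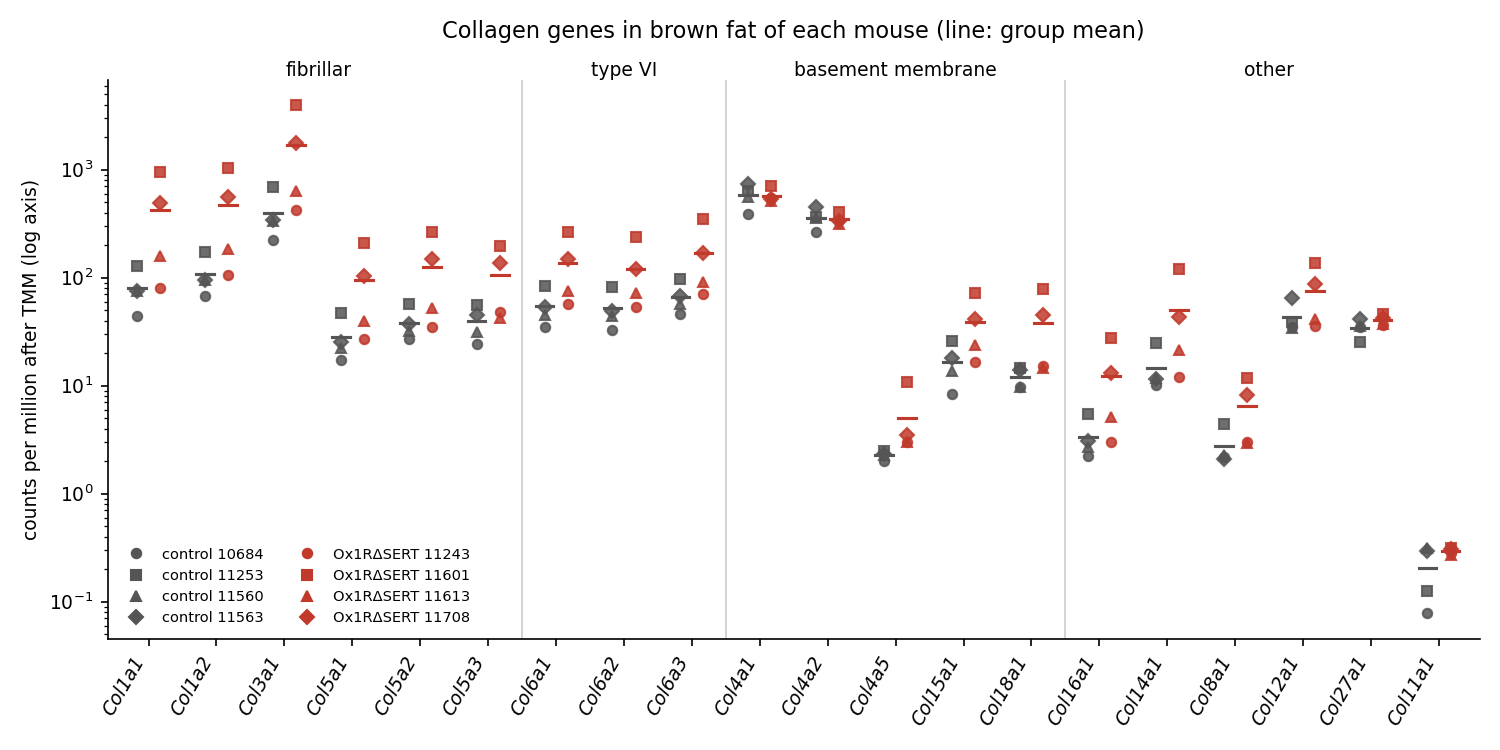
Normalized values (CPM after TMM, log axis) of 20 collagen genes in each of the 8 mice, grouped by class, with a horizontal line at each group mean. Grey symbols are control mice and red symbols Ox1RΔSERT mice. In the fibrillar and type VI genes mice 11601 and 11708 stand above all control mice, and in Col4a1 and Col4a2 the values of the groups overlap.

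Type VI collagen is built from Col6a1 and Col6a2 with a longer chain, of which Col6a3 is the most abundant in adipose tissue and gives rise to the fragment endotrophin. Col6a1 stood at 34.5, 83.2, 45.6 and 53.0 in controls and at 57.4, 267, 75.3 and 149 in Ox1RΔSERT mice. Col6a2 stood at 33.0, 81.3, 44.3 and 49.4 in controls and at 53.3, 236, 72.2 and 119 in Ox1RΔSERT mice. Col6a3 stood at 46.1, 96.2, 56.9 and 67.6 in controls and at 70.6, 347, 91.1 and 169 in Ox1RΔSERT mice. In all of these genes mice 11601 and 11708 were above every control mouse, and the other Ox1RΔSERT mice stayed under control mouse 11253. The log2 fold changes were 1.34 (SE 0.48), 1.21 (SE 0.47) and 1.34 (SE 0.48), with an adjusted p of 0.316 each in edgeR, and 0.30, 0.28 and 0.29 without both mice. The chains kept their proportions: the TPM ratio of Col6a1 to Col6a2 stayed between 0.943 and 1.16, and that of Col6a3 to Col6a1 between 0.671 and 0.964, in the 8 mice.

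The alternative long chains of type VI were scarce. Col6a6 had 20 to 43 counts in controls and 33.8, 206, 73.0 and 81.9 in Ox1RΔSERT mice, and it was the only one of the scarce type VI chains to pass the filter, with a log2 fold change of 1.31 (SE 0.53) and an adjusted p of 0.320 in edgeR, and 0.55 without both mice. Col6a5 had 0 to 9 counts in controls and 9.2, 82.5, 5 and 15.1 in Ox1RΔSERT mice. The fractions arise because reads that match both of these related genes were split between them, so their values are uncertain. Col6a4 had 0 to 1 counts in controls and 0, 4, 0 and 6 in Ox1RΔSERT mice. The highest counts again belonged to mouse 11601 for Col6a5 and to mouse 11708 for Col6a4.

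The basement membrane class divided into genes that followed the fibrillar pattern and genes that did not. Col4a1 and Col4a2 encode the chains of the common type IV network. Col4a1 stood at 389, 634, 562 and 734 in controls and at 542, 708, 511 and 533 in Ox1RΔSERT mice. Col4a2 stood at 262, 362, 353 and 449 in controls and at 340, 407, 314 and 334 in Ox1RΔSERT mice. All Ox1RΔSERT values lay within the control range for both genes, mice 11601 and 11708 included. The log2 fold changes of Col4a1 and Col4a2 were -0.02 (SE 0.20) and -0.03 (SE 0.17), with adjusted p of 0.976 and 0.942 in edgeR, and -0.13 and -0.12 without mice 11601 and 11708. These signs changed with the scaling: scaled by library size the values were 0.22 and 0.19, where the median of all genes was 0.22. The TPM ratio of Col4a1 to Col4a2 stayed between 1.48 and 1.69 in the 8 mice.

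The level of interstitial against basement membrane collagen can be read in the TPM ratio of Col3a1 to Col4a1, which does not depend on the scaling between mice. The control mice had ratios of 0.951, 1.73, 0.987 and 0.798 and the Ox1RΔSERT mice of 1.34, 9.21, 1.93 and 5.16. The ratio was far above the rest in mice 11601 and 11708, and mouse 11613 was slightly above the highest control mouse. Mouse 11243 lay within the control range.

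Types XV and XVIII are carried by the same basement membranes, and their C-terminal fragments (restin and endostatin) are known to act on vessels. Col15a1 stood at 8.37, 26.1, 13.7 and 18.2 in controls and at 16.5, 72.3, 23.6 and 41.6 in Ox1RΔSERT mice. Col18a1 stood at 9.81, 14.7, 9.73 and 13.9 in controls and at 15.2, 78.2, 14.5 and 45.2 in Ox1RΔSERT mice. Mice 11601 and 11708 were above all control mice in both genes, and for Col18a1 mouse 11243 was also just above them. The log2 fold change of Col15a1 was 1.22 (SE 0.49), with an adjusted p of 0.317 in edgeR, and that of Col18a1 was 1.67 (SE 0.53), with an adjusted p of 0.316. DESeq2 called Col18a1 higher at an adjusted p of 0.0359, and in its 8 fits with 1 mouse left out it was called in 3. Without mice 11601 and 11708 the log2 fold changes were 0.28 for Col15a1 and 0.31 for Col18a1.

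Col4a5, a type IV chain on the X chromosome, stood at 2.01, 2.47, 2.28 and 2.33 in controls and at 2.99, 10.8, 2.99 and 3.48 in Ox1RΔSERT mice. Every Ox1RΔSERT mouse was above every control mouse, and mouse 11601 was far above the other 3 of its group. The log2 fold change was 1.15 (SE 0.43), with an adjusted p of 0.316 in edgeR, and 0.40 without mice 11601 and 11708. Its neighbour Col4a6 had 0 to 6 counts in a mouse and was not tested. Col4a3 and Col4a4, the chains known from the glomerulus of the kidney, had 11 to 23 and 15 to 59 counts in a mouse, and their groups overlapped. Over the 7 tested genes of the class the median log2 fold change was -0.02, with 3 genes above 1 and 4 below 0, and 0.039 without both mice.

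Among the collagens of other types, the 6 tested genes with the lowest edgeR p are given with their values. Col16a1 and Col14a1 encode fibril-associated collagens, which sit on the surface of fibrils. Col16a1 stood at 2.25, 5.42, 2.71 and 3.05 in controls and at 2.99, 27.7, 5.07 and 13.2 in Ox1RΔSERT mice. Col14a1 stood at 10.1, 24.8, 11.8 and 11.4 in controls and at 12.1, 121, 21.4 and 43.6 in Ox1RΔSERT mice. Col8a1, a short-chain network collagen of vessel walls, stood at 2.17, 4.44, 2.26 and 2.08 in controls and at 2.99, 11.7, 2.96 and 8.17 in Ox1RΔSERT mice. In these genes mice 11601 and 11708 were above all control mice and the other Ox1RΔSERT mice lay within the control range. The log2 fold changes were 1.87 (SE 0.65), 1.77 (SE 0.67) and 1.24 (SE 0.49), with an adjusted p of 0.316 each in edgeR, and 0.28, 0.21 and 0.14 without both mice.

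Col12a1, another fibril-associated collagen, stood at 34.7, 38.6, 34.4 and 64.4 in controls and at 35.6, 137, 41.1 and 88.2 in Ox1RΔSERT mice. Its log2 fold change was 0.81 (SE 0.43), with an adjusted p of 0.381 in edgeR, and it turned to -0.16 without mice 11601 and 11708. Col27a1, a fibril-forming collagen known from cartilage, stood at 34.8, 25.1, 35.4 and 41.7 in controls and at 36.4, 46.5, 37.5 and 42.3 in Ox1RΔSERT mice. The groups of Col27a1 overlapped, and mice 11601 and 11708 were the highest but only slightly above the highest control mouse. The log2 fold change was 0.25 (SE 0.15), with an adjusted p of 0.445 in edgeR, and 0.11 without both mice. Col11a1, a partner of type V in fibrils, had 3 to 16 counts in a mouse, with a log2 fold change of 0.49 (SE 0.42) and an adjusted p of 0.579 in edgeR, and 0.40 without both mice.

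The other 8 tested members, Col7a1, Col10a1, Col11a2, Col13a1, Col20a1, Col23a1, Col26a1 and Col28a1, had log2 fold changes between -0.31 and 0.30, with 7 below 0 and 1 above, and unadjusted p of at least 0.388 in edgeR. None of these exceeded 2.87 TPM in any mouse. Over the 14 tested genes of the other types, the median log2 fold change was 0.12 with all mice and also without both.

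The 13 members under the filter were Col2a1, Col4a6, Col6a4, Col6a5, Col8a2, Col9a1, Col9a2, Col9a3, Col17a1, Col19a1, Col22a1, Col24a1 and Col25a1. Col9a1 had 0 counts in all mice, and Col2a1, the main collagen of cartilage, had 1 count, in mouse 11708. A count of 0 allows up to 3 counts, which correspond to normalized values of 0.0592 to 0.0951 in the 8 mice and cover counting error only. Col24a1, a fibril-forming collagen, had 0 to 2 counts in controls and 2, 30, 4 and 44 in Ox1RΔSERT mice. Col8a2, the partner of Col8a1, had 0 to 2 counts in controls and 2, 41, 11 and 10 in Ox1RΔSERT mice. For these genes too, mouse 11243 had no more counts than the highest control mouse. Mice 11601 and 11708 were the 2 highest in 4 of the 13 genes.

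Making a collagen needs hydroxylases, chaperones and, after secretion, proteases and lysyl oxidases, and lists of these genes were read in the same fit. Of 19 genes for synthesis and folding, 0 were called in edgeR, 9 were higher at an unadjusted p under 0.05 (over all genes tested, 10.2%) and 0 were lower, and the median log2 fold change was 0.49, against 0.17 without mice 11601 and 11708. DESeq2 called P4ha3 and Fkbp10 higher, a direction it gave to 1.54% of its genes with an adjusted p. P4ha3, an alpha subunit of the prolyl hydroxylase, stood at 0.105 to 0.571 in controls and at 0.262, 5.42, 0.808 and 3.29 in Ox1RΔSERT mice. Fkbp10, a collagen chaperone of the endoplasmic reticulum, stood at 2.17 to 4.03 in controls and at 2.79, 20.7, 4.29 and 11.5 in Ox1RΔSERT mice. Both were highest in mouse 11601 and next in mouse 11708, as the fibrillar genes were.

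Of 13 genes for procollagen cleavage and cross-linking, 6 were higher at an unadjusted p under 0.05 and 0 were lower. Over all genes tested, 10.2% were higher and 4.96% lower at that p. The median log2 fold change of the list was 1.022, and 0.074 without both mice. DESeq2 called Bmp1, Loxl3 and Loxl4 higher, as it did 1.54% of its genes with an adjusted p. Bmp1, the protease that trims the C-terminal end of fibrillar procollagens, stood at 11.2 to 14.8 in controls and at 13.2, 77.1, 19.6 and 40.4 in Ox1RΔSERT mice. Loxl3, a lysyl oxidase, stood at 1.92 to 3.01 in controls and at 3.01, 13.2, 4.78 and 10.2 in Ox1RΔSERT mice. Loxl4, a further lysyl oxidase, stood at 0.903 to 2.12 in controls and at 1.68, 6.94, 2.16 and 5.04 in Ox1RΔSERT mice. In each of the 3 genes, mice 11601 and 11708 were the highest.

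Of the 15 listed proteoglycans and glycoproteins of collagen fibrils, 13 were tested, 10 were higher at an unadjusted p under 0.05 and 0 were lower, and the median log2 fold change was 1.04, and 0.25 without both mice. DESeq2 called Abi3bp, a matrix glycoprotein, which stood at 2.26 to 3.74 in controls and at 3.32, 15.6, 4.60 and 13.2 in Ox1RΔSERT mice. Of 11 collagen receptors, 9 were tested and 3 were higher at that p, against 10.2% of all genes tested, with a median of 0.17, and 0.08 without both mice. DESeq2 called Ddr2, a receptor kinase for fibrillar collagens. Ddr2 stood at 18.7 to 28.3 in controls and at 31.2, 97.9, 30.0 and 53.0 in Ox1RΔSERT mice. Every Ox1RΔSERT mouse was thus above every control mouse for Ddr2. This pattern was seen in 1 of the 9 tested receptors and in 2.69% of all tested genes. Over all its genes with an adjusted p, DESeq2 called 1.54% higher.

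Of 15 genes of TGF-beta ligands, receptors and targets (a further symbol of the list, Ctgf, had no match), 6 were higher at an unadjusted p under 0.05 and 0 were lower. Over all genes tested, 10.2% were higher and 4.96% lower at that p. The median log2 fold change of the list was 0.27, and 0.054 without both mice. DESeq2 called Tgfbi and Thbs1 higher, as it did 1.54% of its genes with an adjusted p. Tgfbi, a secreted TGF-beta target that binds collagens, stood at 7.34 to 14.0 in controls and at 13.9, 41.0, 14.9 and 57.7 in Ox1RΔSERT mice. Thbs1, thrombospondin 1, stood at 24.2 to 51.1 in controls and at 59.1, 237, 58.1 and 249 in Ox1RΔSERT mice. For these targets mouse 11708 was higher than mouse 11601, unlike in the fibrillar genes. In edgeR the adjusted p was 0.316 for each gene that DESeq2 called in these lists.

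Markers of the cells that make collagen, and of other cells, were read beside these results. Of 14 fibroblast and adipose progenitor markers, 11 were higher at an unadjusted p under 0.05 in edgeR and 0 were lower, while 10.2% of all genes tested were higher. Their median log2 fold change was 1.24, and without mice 11601 and 11708 it was 0.19, with 1 gene at that p. Without both mice, 402 of all 14489 genes tested reached that p. Their normalized values summed to 282 to 473 in controls and to 367, 1399, 430 and 757 in Ox1RΔSERT mice. Pdgfra, which defines these cells, stood at 11.2 to 20.3 in controls and at 20.3, 52.2, 20.3 and 35.0 in Ox1RΔSERT mice. The fibroblast sum was thus high in the mice in which the fibrillar sum was high, and its part in the collagen result was not tested. In mouse 11601 the fibrillar sum was above the control mean by 3.26 on the log2 scale and the fibroblast sum by 1.996, and in mouse 11708 by 2.22 and 1.11.

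Of 12 macrophage markers, 11 were tested, 9 were higher at an unadjusted p under 0.05 and 0 were lower, beside 10.2% higher over all genes tested. Their median log2 fold change was 1.18, and without mice 11601 and 11708 it was 0.068, with 0 genes at that p. Without both mice, 402 of all 14489 genes tested reached that p. Their values summed to 186 to 393 in controls and to 269, 1181, 312 and 896 in Ox1RΔSERT mice. Of 9 leukocyte markers, 4 were tested and 3 were higher at that p, with sums of 4.13 to 11.0 in controls and 9.83, 38.5, 10.7 and 34.3 in Ox1RΔSERT mice. Without both mice their median log2 fold change was 0.62, and 0 genes were at that p. DESeq2 called the macrophage genes Mrc1 and Itgam and the leukocyte genes Ptprc and Itgax higher, as it did 1.54% of its genes with an adjusted p. The 12 brown adipocyte markers summed to 14400 to 15819 in controls and to 13830, 10244, 13280 and 9449 in Ox1RΔSERT mice, with 4 lower and 0 higher at an unadjusted p under 0.05, beside 4.96% of all genes tested that were lower at that p. Their median log2 fold change was -0.31, and without both mice it was -0.10, with 1 gene at that p. DESeq2 called Elovl3 lower, a direction it gave to 0.212% of its genes with an adjusted p. The part of these cell markers in the collagen values was not tested either.

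The sums of vessel and Schwann cell markers in mice 11601 and 11708 were not above those of the controls. The 10 mural and smooth muscle markers summed to 327 to 503 in controls and to 489, 345, 368 and 409 in Ox1RΔSERT mice, and the 10 endothelial markers to 429 to 596 and to 541, 381, 490 and 584. The 8 Schwann cell markers summed to 314 to 350 in controls and to 325, 285, 321 and 272 in Ox1RΔSERT mice, lowest in mice 11708 and 11601. The 7 mesothelial markers summed to 0.181 to 0.888 in controls and to 0.349, 0.493, 0.651 and 1.81 in Ox1RΔSERT mice, and the 9 cartilage and bone markers to 1.17 to 2.28 and to 2.60, 4.65, 1.28 and 4.05, near the limit of detection for most genes. Of the mesothelial markers, Upk1b had 0 TPM in all mice and the means of Msln, Upk3b and Wt1 were at most 0.0226 TPM in either group, and of the cartilage and bone markers Matn1, Snorc and Ibsp had 0 TPM in all mice. The 12 skeletal muscle markers summed to 2.71 to 1812 in controls and to 48.0, 199, 11.2 and 2555 in Ox1RΔSERT mice, so that high sums occurred in both groups, in mice 11253 and 11708.

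**Figure D4:**
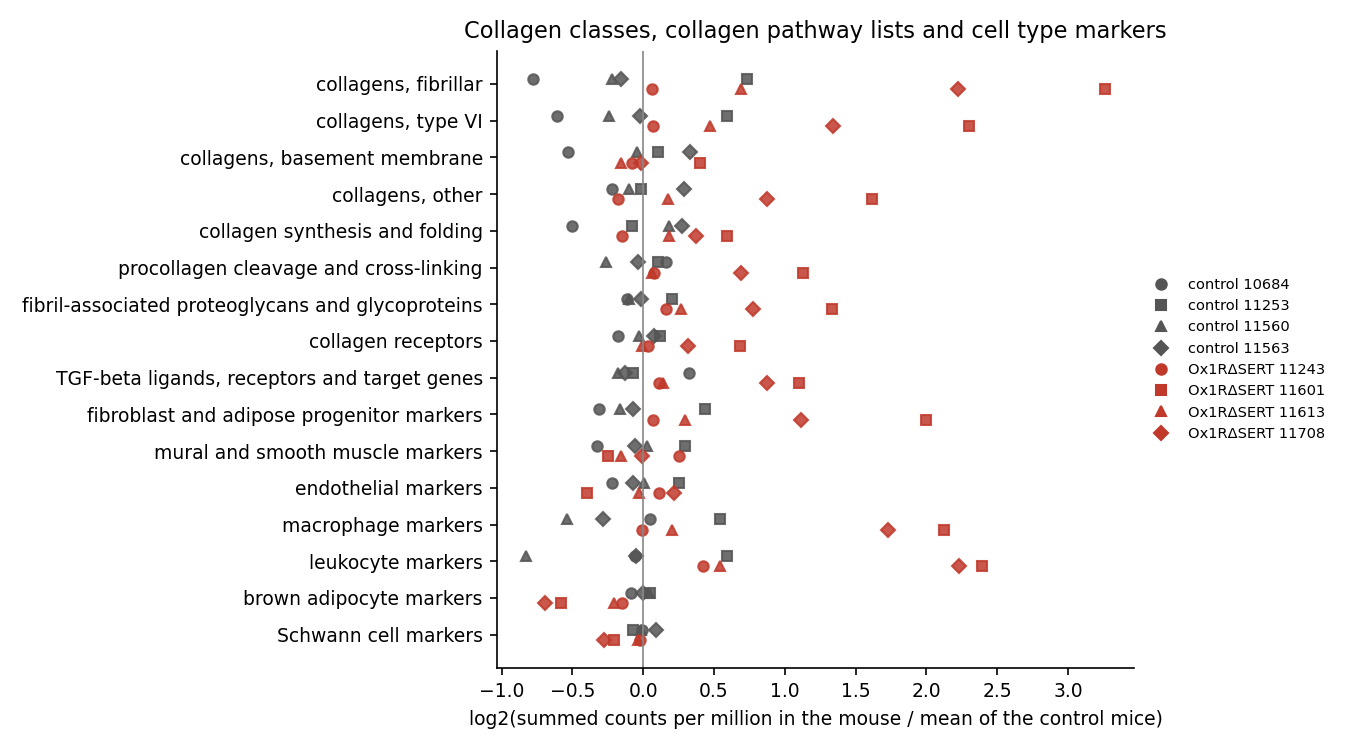
Summed normalized values of 4 collagen classes, 5 lists of collagen-related genes and 7 lists of cell type markers in each mouse, as log2 of the ratio to the mean of the control mice. Grey symbols are control mice and red symbols Ox1RΔSERT mice, offset vertically. Mice 11601 and 11708 are the highest for fibrillar and type VI collagens, for fibroblast markers and for macrophage markers, and the lowest for brown adipocyte markers.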

How the data were processed

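Poly-A selected RNA from BAT was sequenced as stranded libraries, 1 per mouse. Per the labels and the study's methods, the authors ran the nf-core pipeline with Salmon 0.14.1 on GRCm38 and deposited estimated counts per gene, not normalized, and TPM values, which they scaled for transcript length to a fixed sum. The annotation release is not given in the sources used here. Positions and symbols came from GENCODE M21 on GRCm38, which named 44118 of 44674 identifiers; the rest took 0.0347% to 0.0485% of a mouse's counts.

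Estimated counts were rounded. The groups were compared over all 8 mice with no covariate in edgeR 4.0.16 (filterByExpr, TMM, glmQLFit, glmQLFTest) under R 4.3.3, as two-sided tests whose p were adjusted by Benjamini-Hochberg over all 14489 tested genes, at a threshold of 0.05. DESeq2 1.42.0 and limma 3.58.1 served as alternatives. Standard errors of log2 fold changes came from the F statistic. The scripts were tested on simulated counts.

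Members, classes and lists were chosen with earlier results of these data known. Values are given for every tested member of types I, III, V, IV, XV, XVIII and VI, by counts where all mice were under 1 TPM, and for the 6 other members with the lowest edgeR p. In the other lists the genes called by DESeq2 are named. Classes and lists are described by counts and medians, without a test. Each library is a separate mouse, and replicate numbers follow accession order and pair no mice.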

Additional observations from a re-analysis of the deposited data

Results flagged for a closer look

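Within a group of 4 mice, a value was set apart when its gap to the nearest other mouse, divided by the range of the group, exceeded Dixon's critical value. Of 62 groups of normalized values of tested collagen genes, 6 were set apart, and chance sets apart about 1 in 20. In the Ox1RΔSERT mice, mouse 11601 was set apart for Col4a1, at 708 against 511 to 542 in the others, and for Col4a5, at 10.8 against 2.99 to 3.48. In the control mice, mouse 11253 was set apart for Col4a4 at 1.87 against 0.339 to 0.483, for Col8a1 at 4.44 against 2.08 to 2.26 and for Col14a1 at 24.8 against 10.1 to 11.8. Mouse 11563 was set apart for Col12a1 among the control mice, at 64.4 against 34.4 to 38.6. Control mouse 11253 was also the highest control mouse for the fibrillar and type VI genes with values in the report.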

How the results depend on the processing

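Over 21 alternative fits, all 126 log2 fold changes of the 6 fibrillar genes and all 84 of the 4 tested type VI genes were above 0, against 82 of 147 for the basement membrane genes and 175 of 292 for the other types. Of the 20 members named with a fold change, 17 kept their sign in every fit. Of the 11 other tested members, 9 changed sign at least once, so that no direction is read from those 9. Col6a6, which is among the 11, stayed above 0 in every fit. No edgeR or limma fit called a gene at an adjusted p under 0.05, nor did edgeR at an adjusted p under 0.1. DESeq2 called 265 genes and 1 collagen gene, at an adjusted p under 0.1 it called 603 and 8, and without mice 11601 and 11708 it called 8 and 0, a fit added after the data were seen.

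With 1 mouse left out, DESeq2 called 17 to 1516 genes and 0 to 18 collagen genes: 0 without mouse 11601, 11708, 10684, 11560 or 11563, 7 without mouse 11253, 13 without mouse 11613 and 18 without mouse 11243. Over all genes it called 17 without mouse 11601 or 11560, 19 without mouse 11708, 49 without mouse 11563 and 247 without mouse 11253. It called 373 without mouse 10684, 936 without mouse 11613 and 1516 without mouse 11243.

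Without mice 11601 and 11708, the median log2 fold change went from 1.15 to 0.22 over the tested collagens, from 1.93 to 0.34 in the fibrillar class and from 1.33 to 0.29 in type VI, and Col12a1 turned to -0.16. The median of the basement membrane class, -0.02, is the value of Col4a1 and turned to 0.039 without both mice, 0.22 with library size scaling, 0.063 with voom and quality weights and 0.33 and 0.32 on log2(TPM + 0.1) and log2(TPM + 1). It lay between -0.16 and 0.44 with 1 mouse left out. Col4a1 itself stood at 0.22, 0.33 and 0.32 under library size and both TPM scales and Col4a2 at 0.19, 0.30 and 0.30, and with 1 mouse left out at -0.17 to 0.10 and -0.16 to 0.084. These scales move the median of all genes, to 0.22 with library size, 0.32 with log2(TPM + 0.1) and 0.23 with log2(TPM + 1), and the median of the other types went from 0.12 to 0.34 with library size. Rescaling TPM to the nuclear genes alone, a scale added after the data were seen, kept each ratio of summed TPM within the spread between mice. No paired analysis was possible because the labels give no replicate numbers that pair the mice. Members under the filter had at most 83 counts in a mouse, which limits what can be said of them.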
